A study of Mus musculus with 8 samples.

Results

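Epoxide hydrolases, flavin-containing monooxygenases and aldehyde oxidases are liver enzymes that act on foreign compounds beside the P450 enzymes, and 7 of their genes were followed here: Ephx1, Ephx2, Fmo1, Fmo2, Fmo5, Aox1 and Aox3. They were chosen as named genes of these families, by a rule on symbols that uses no measured value although earlier results of these data were known, and were read through 11 of the 62976 features (spots) on each array; the whole table named 20738 genes. Total liver RNA came from male CD-1 mice, an outbred stock, fed for 7 days a diet with 2500 ppm NaPB (4 arrays), the sodium salt of phenobarbital, or a control diet with 0 ppm (4 arrays). One-colour Agilent arrays were used, the values are spot intensities scaled by the authors, and the comparison asks which transcripts differed between the diets. Whether each array stands for its own mouse is not stated in the labels; the p-values therefore cover only the spread seen among these samples, which may be technical.

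Epoxide hydrolases add water to epoxides, reactive products of P450 oxidation. The microsomal enzyme, encoded by Ephx1, acts on epoxides of drugs and other foreign compounds and is long known as a product that phenobarbital induces in rodent liver, whereas the soluble enzyme, encoded by Ephx2, mainly hydrolyses epoxides of fatty acids. Flavin-containing monooxygenases use NADPH and bound FAD to oxygenate nitrogen and sulfur atoms of drugs. Aldehyde oxidases are cytosolic enzymes with a molybdenum cofactor, iron-sulfur clusters and FAD that oxidize aldehydes and nitrogen heterocycles. Phenobarbital acts in hepatocytes through the nuclear receptor CAR.

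On the NaPB diet, Ephx1 lay 2.90-fold above the control diet by its brighter feature and Aox3 lay 4.56-fold below it, each on all 4 arrays. The other Ephx1 feature was 1.38-fold higher and overlapped between diets. Neither passed the test over all genes (limma adjusted p = 0.0636 for Ephx1 and 0.0746 for Aox3; threshold 0.05). By their brightest features, Fmo1, Fmo5 and Aox1 lay above every control array on NaPB replicates 1 to 3. On NaPB replicate 4 they lay within or below the control range. The dimmest Fmo5 feature did not follow this pattern, and the share of all genes that did was not counted. Ephx2 and Fmo2 overlapped between diets, Fmo2 near the lower limit of the arrays. No member was called by limma in this fit of all 8 arrays, where 1.01% of all genes were called, and none of the 11 features was called in the fit over all features, where 1.02% were. Quantile normalization, a filter on dim genes, a robust variance trend and array weights, also with all 8 arrays, each called Ephx1, and the trend and the weights Aox3 as well, in fits that called 1.27% to 3.92% of all genes. At an unadjusted p below 0.05 there were 3 members, Ephx1, Fmo2 and Aox3, where 10.1% of all genes had such a p. The median log2 fold change of the 7 genes was 0.76 and that of all genes 0.01. The median absolute log2 fold change was 0.77 in the members and 0.29 over all genes. All genes are not a background matched for brightness. Every member but Fmo2 lay between the 83.1 and 98.9 percentile of mean intensity, and all genes include the dim ones. Both medians of the members count Fmo2, whose control values were near the lower limit of the arrays.

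The arrays differed in a way that bears on many of the values below. Control replicate 1 and NaPB replicate 4 had the lowest array weights (0.308 and 0.313, against 1.14 to 1.98 for the other arrays). Cyp2b10, the P450 gene classically induced by phenobarbital and read here as a check of the labels, stood at 521, 491, 430 and 77.7 on NaPB replicates 1 to 4, against 3.72, 0.863, 2.98 and 5.22 on control replicates 1 to 4. All NaPB arrays thus carried the mark of the diet, NaPB replicate 4 the least. On that array 6 of the 7 members were at their lowest among the NaPB arrays, as were 43.7% of all genes. Relative to the mean of NaPB replicates 1 to 3, the members on NaPB replicate 4 ran from −2.80 log2 units (Aox1) to 0.51 (Fmo2). The median over all genes was −0.20. Fmo2 was near the lower limit of the arrays, and the next highest member was Ephx1 at −0.84. What set that array apart was not tested.

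Hepatocyte markers were strong on both diets: the summed intensity of Alb, Apoa1, Apob, Ttr, Tat and Cps1 lay between 629 and 1239 with NaPB and between 1133 and 2049 with the control diet. Of these 6 genes, Alb and Apoa1 lay lower on every NaPB array, Alb by a log2 fold change of −1.24 ± 0.36 (SE), and neither passed (limma adjusted p = 0.19 for Alb and 0.167 for Apoa1). The 5 Kupffer cell markers had summed intensities of 7.98 to 9.24 on the NaPB arrays, all below the 11.4 to 12.4 of the control arrays. Clec4f, Adgre1 and Vsig4 lay lower on every NaPB array, whereas Marco and Cd68 (log2 fold change 0.01) overlapped between diets. Alb, Apoa1, Clec4f, Adgre1 and Vsig4 thus lay below every control array on the NaPB diet, as did 4.31% of all genes. Of 32 marker genes for 8 cell types, none was called by limma, where 1.01% of all genes were. An unadjusted p below 0.05 was held by 5, where 10.1% of all genes had such a p. In whole liver, fewer cells of a type and less RNA per cell cannot be told apart, and the part of these shifts in the members' values was not tested.

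**Figure D1:**
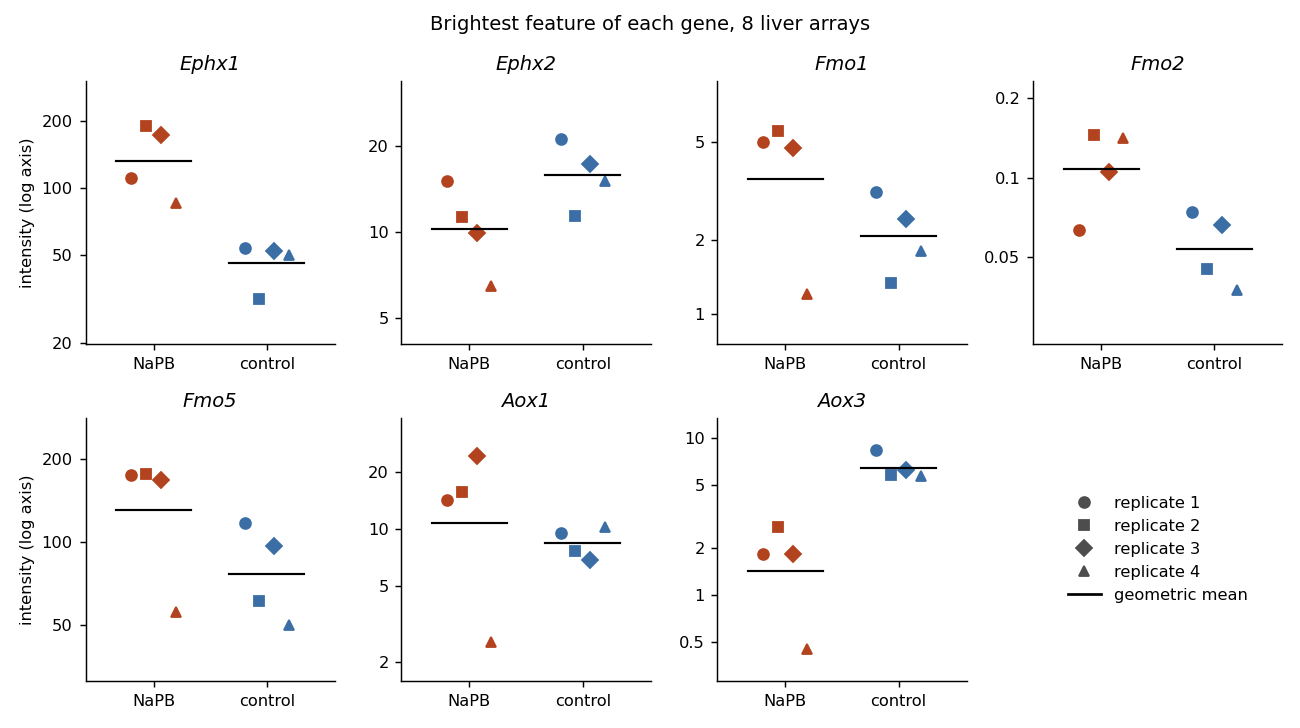
Intensity (log axis, 1 panel per gene) of the brightest feature of each of the 7 genes on the 4 NaPB arrays (left) and the 4 control arrays (right); symbols mark the replicate and lines the geometric mean. Ephx1 is higher and Aox3 lower on every NaPB array, and NaPB replicate 4 is the lowest NaPB array for every gene but Fmo2.

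Ephx1, the microsomal epoxide hydrolase, had intensities of 110, 189, 174 and 85.7 on NaPB replicates 1 to 4, against 53.6, 31.5, 52.0 and 50.0 on control replicates 1 to 4. Every NaPB array lay above every control array, a pattern shared by 2.72% of all genes. The log2 fold change was 1.54 ± 0.33 (SE, n = 4 per diet; 95% confidence interval 0.80 to 2.27). Without NaPB replicate 4 it was 1.75 and passed (limma adjusted p = 0.0288), in a fit that called 1.76% of all genes. Leaving out any other single array gave limma adjusted p between 0.0869 and 0.201.

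A second feature of Ephx1 gave a smaller difference. It read 7.54, 11.8, 11.2 and 4.08 on NaPB replicates 1 to 4 and 7.85, 4.27, 6.43 and 5.15 on control replicates 1 to 4, so the diets overlapped. Its log2 fold change of 0.47 ± 0.39 did not pass over all features (limma adjusted p = 0.789). Both features carry the same transcript accession in the array annotation. Within each array the brighter feature exceeded the other by 3.87 to 4.39 log2 units on the NaPB diet and by 2.77 to 3.28 on the control diet. The mean of that excess differed between diets by 1.07 log2 units, without overlap. The comparison of features was chosen after their values were seen and is given with no test. Averaging both features gave an Ephx1 difference of 2.00-fold (limma adjusted p = 0.317).

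Ephx2, the soluble epoxide hydrolase, lay lower on average on the NaPB diet. Its only feature read 15.0, 11.3, 9.93 and 6.45 on NaPB replicates 1 to 4, against 21.1, 11.4, 17.2 and 15.0 on control replicates 1 to 4. The diets overlapped, and the log2 fold change of −0.63 ± 0.33 did not pass (limma adjusted p = 0.593; 95% confidence interval −1.35 to 0.09). Without NaPB replicate 4 it was −0.41.

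The 2 epoxide hydrolase genes were also set against each other within each array. The log2 difference of Ephx1 minus Ephx2 was 2.88, 4.07, 4.13 and 3.73 on NaPB replicates 1 to 4 and 1.35, 1.47, 1.60 and 1.74 on control replicates 1 to 4. Such a difference compares 2 features and has no meaning as a level. Its change between diets was 2.16 log2 units, a 4.48-fold change of the ratio, with no overlap and NaPB replicate 4 among the other NaPB arrays; with the mean of both Ephx1 features it was 1.63. The exact permutation test gave its smallest possible p (two-sided p = 0.0286), which was 0.0714 after adjustment over the 5 pairs of members compared, above the threshold. Of the other pairs only Aox1 minus Aox3 reached that smallest p. Unless further pairs did so, neither could pass after adjustment, however large its difference.

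The sequence before the start of Ephx1 is shown because Ephx1 was the member with the largest positive log2 fold change, together with those of Aox1 and Aox3, neighbouring genes whose ratio did not overlap between diets. The RefSeq promoter table (GRCm38.p6) held 5 of the 7 members. The bases printed are the 250 before the annotated start, 5′ to 3′ on the gene's strand, with GC boxes (GGGCGG on either strand) in capitals.
Ephx1, chr1:181017570-181017819, minus strand: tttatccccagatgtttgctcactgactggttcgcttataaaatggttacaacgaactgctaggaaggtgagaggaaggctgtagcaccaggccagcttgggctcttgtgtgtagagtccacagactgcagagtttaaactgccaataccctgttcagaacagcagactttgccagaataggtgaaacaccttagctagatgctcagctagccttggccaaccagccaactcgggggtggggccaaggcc
Aox1, chr1:58029719-58029968, plus strand: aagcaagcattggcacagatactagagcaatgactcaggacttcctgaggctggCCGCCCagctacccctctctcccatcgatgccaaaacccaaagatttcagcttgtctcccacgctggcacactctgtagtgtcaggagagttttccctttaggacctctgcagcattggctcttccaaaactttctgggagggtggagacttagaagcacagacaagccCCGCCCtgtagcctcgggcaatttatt
Aox3, chr1:58112886-58113135, plus strand: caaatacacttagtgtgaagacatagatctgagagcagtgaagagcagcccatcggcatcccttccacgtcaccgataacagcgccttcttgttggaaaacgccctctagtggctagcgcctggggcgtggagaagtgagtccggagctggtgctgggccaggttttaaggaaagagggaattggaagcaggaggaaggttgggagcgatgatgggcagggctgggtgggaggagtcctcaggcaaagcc
Aox1 had 2 GC boxes in this window, both on the opposite strand, and Ephx1 and Aox3 had none; 32.7% of the 32851 promoters of the table hold at least 1. The nuclear receptor half-sites AGGTCA and AGTTCA and the antioxidant response element core TGACNNNGC, searched on both strands, were in none of these 3 windows, where 14.0%, 11.8% and 10.2% of all promoters hold them. The match of letters is a description of these windows alone. The share of G and C was 51.2% before Ephx1, 52.8% before Aox1 and 56.4% before Aox3.

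Aox1 and Aox3, both aldehyde oxidase genes of mouse liver, follow each other on chromosome 1, and Aox3 is next to Aox4, a further gene of the family. Aox3 read 1.82, 2.71, 1.83 and 0.452 on NaPB replicates 1 to 4, against 8.42, 5.83, 6.24 and 5.72 on control replicates 1 to 4. Every NaPB array lay below every control array, as for 4.31% of all genes, and NaPB replicate 4 was the farthest away. The log2 fold change was −2.19 ± 0.49 (SE, n = 4 per diet; 95% confidence interval −3.27 to −1.11). Without NaPB replicate 4 the difference was smaller, −1.64, and passed (limma adjusted p = 0.0248). With any other array left out the limma adjusted p was between 0.0676 and 0.18.

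For Aox1 the arrays of the NaPB diet fell on both sides of the controls. It read 14.3, 15.7, 24.3 and 2.53 on NaPB replicates 1 to 4, against 9.58, 7.64, 6.92 and 10.2 on control replicates 1 to 4. The first 3 NaPB arrays lay above all control arrays and NaPB replicate 4 below them all. The log2 fold change was 0.35 ± 0.59 (limma adjusted p = 0.899; 95% confidence interval −0.96 to 1.66), with a log2 SD of 1.44 on the NaPB diet and 0.27 on the control diet. It was 1.05 without NaPB replicate 4 (limma adjusted p = 0.127) and −0.04 without NaPB replicate 3 (0.995), so its size and its sign each turned on 1 array.

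The ratio of the 2 aldehyde oxidase genes separated the diets on every array. Aox1 minus Aox3 was 2.97, 2.54, 3.74 and 2.48 log2 units on NaPB replicates 1 to 4, against 0.19, 0.39, 0.15 and 0.84 on control replicates 1 to 4. NaPB replicate 4, where both genes were at their lowest, gave nearly the same difference as NaPB replicate 2. The mean was 2.93 ± 0.58 on the NaPB diet and 0.39 ± 0.32 on the control diet (SD, n = 4 each). The ratio of Aox1 to Aox3 was thus 5.82-fold higher on the NaPB diet. Most of this shift was the lower Aox3, whose log2 fold change of −2.19 separated the diets without Aox1. The log2 fold change of Aox1 was 0.35, and its diets overlapped. The exact permutation test again gave its smallest possible value (two-sided p = 0.0286, and 0.0714 adjusted over 5 pairs). The limit given for Ephx1 minus Ephx2 held here too. With any 1 array left out the difference of 2.54 log2 units stayed between 2.27 and 2.69.

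**Figure D2:**
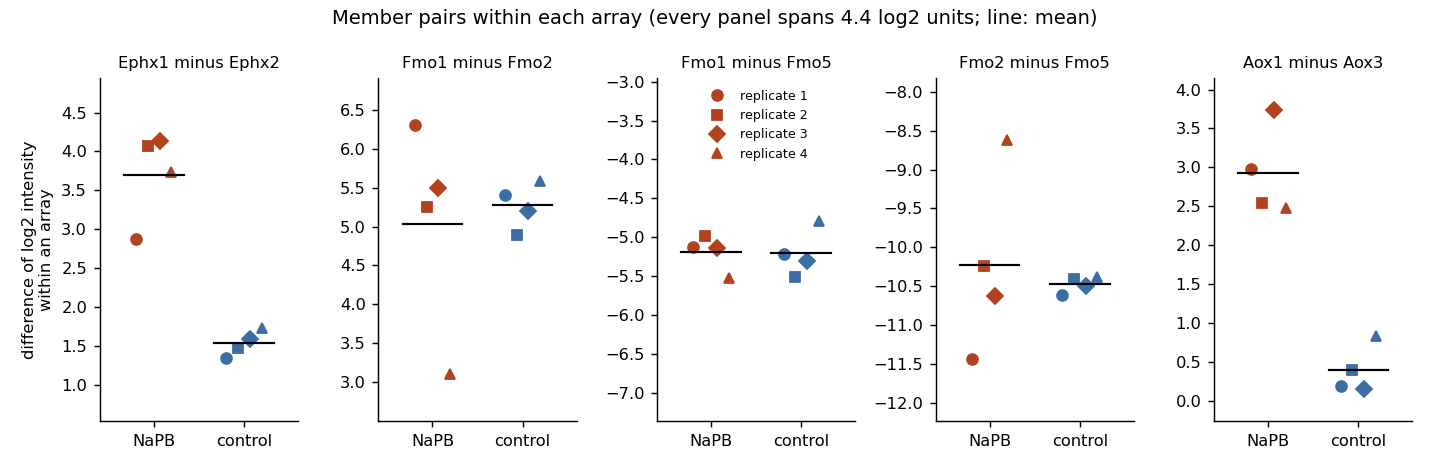
Difference of log2 intensity between 2 members on each NaPB array (left) and control array (right) for the 5 pairs compared; lines are means, and only the shift between diets is interpretable. The Ephx1 and Ephx2 pair and the Aox1 and Aox3 pair do not overlap between diets (2.16 and 2.54 log2 units apart), whereas the Fmo pairs do.

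None of the 3 flavin-containing monooxygenase genes was called. Fmo5, whose product is abundant in mouse liver and acts on ketones, read 175, 176, 167 and 55.7 on NaPB replicates 1 to 4, against 117, 61.1, 96.5 and 50.2 on control replicates 1 to 4. NaPB replicates 1 to 3 lay close together above all controls and NaPB replicate 4 among the controls. The log2 fold change was 0.76 ± 0.44 (limma adjusted p = 0.649; 95% confidence interval −0.20 to 1.72), and 1.17 without NaPB replicate 4 (0.141).

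Fmo5 had 2 more features with the same transcript accession. One read 17.3, 17.9, 12.0 and 5.88 on NaPB replicates 1 to 4 and 11.2, 7.74, 11.9 and 5.88 on control replicates 1 to 4, a log2 fold change of 0.46 ± 0.41. The dimmest read 2.33, 2.41, 1.98 and 0.333 on NaPB replicates 1 to 4 and 2.68, 1.33, 2.52 and 0.776 on control replicates 1 to 4, a log2 fold change of −0.23 ± 0.64. None of the 3 was called, and they did not share a sign. Within an array the brightest exceeded the dimmest by 6.19 to 7.39 log2 units on the NaPB diet and 5.26 to 6.01 on the control diet, again without overlap.

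Fmo1, encoding a monooxygenase with a wide range of substrates, had an order of arrays close to that of the brightest Fmo5 feature. It read 5.01, 5.54, 4.75 and 1.21 on NaPB replicates 1 to 4, against 3.15, 1.34, 2.44 and 1.81 on control replicates 1 to 4. NaPB replicates 1 to 3 were again above all controls, and NaPB replicate 4 was below them all. The log2 fold change was 0.77 ± 0.49 (limma adjusted p = 0.706; 95% confidence interval −0.31 to 1.86), which was 1.29 without NaPB replicate 4 (0.0977). Its other feature gave 0.49 ± 0.49. Without both outer arrays, NaPB replicate 4 and control replicate 1, Fmo1 passed (log2 1.49, limma adjusted p = 0.0366), in a fit that called 2.75% of all genes.

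Fmo2, next to Fmo1 on chromosome 1 and best known as the monooxygenase of lung, was dim throughout. It read 0.0633, 0.145, 0.106 and 0.141 on NaPB replicates 1 to 4, against 0.0744, 0.0452, 0.0666 and 0.0376 on control replicates 1 to 4. All 4 control values and that of NaPB replicate 1 were within 2 times the lowest value of their array, taken here as the floor. NaPB replicate 1 lay inside the control range and the other NaPB arrays above it. Fmo2 did not pass (limma adjusted p = 0.313), and no fold is given because values at the floor are no measured level.

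No pair of monooxygenase genes was found to differ in its change between diets. Fmo1 minus Fmo5 was −5.19 ± 0.23 log2 units on the NaPB diet and −5.20 ± 0.30 on the control diet (SD, n = 4 each), a difference of 0.01 (exact permutation p = 0.971, two-sided). This includes NaPB replicate 4, which held the lowest NaPB value of both genes. With the mean of all features of each gene the difference was 0.30 (exact permutation, adjusted p = 0.286). Fmo1 minus Fmo2 and Fmo2 minus Fmo5 differed between diets by −0.23 and 0.24 log2 units (exact permutation p = 0.857 and 0.743), and both rest on Fmo2 values at the floor. A p of this size does not show that the genes responded alike.

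**Figure D3:**
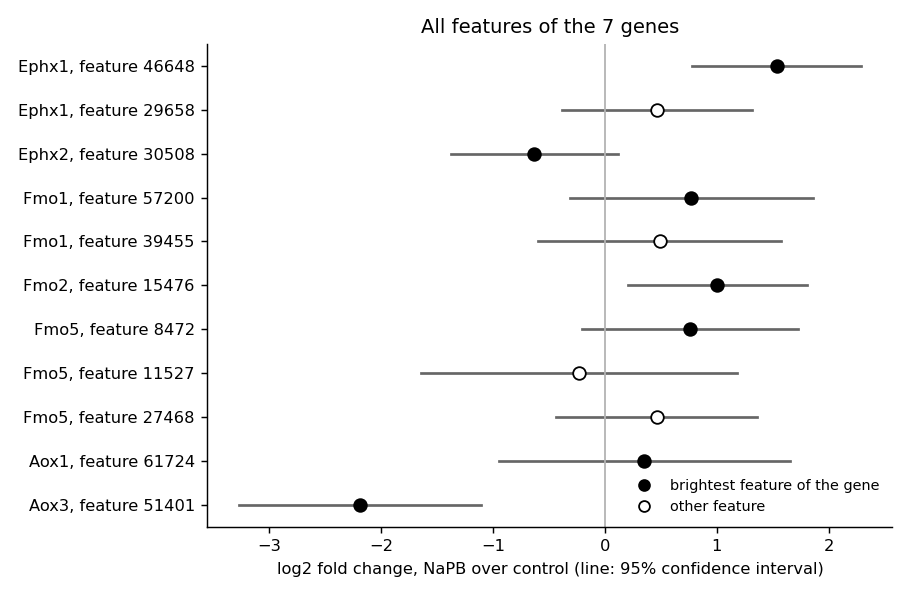
Log2 fold change of NaPB over control for the 11 features of the 7 genes, with 95% confidence intervals of the limma fit over all features; filled circles are the brightest feature of a gene. The brightest Ephx1 feature (1.54) and the Aox3 feature (−2.19) lie farthest from 0, and the 3 Fmo5 features run from −0.23 to 0.76. The Fmo2 value rests on control arrays at the floor.

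**Figure D4:**
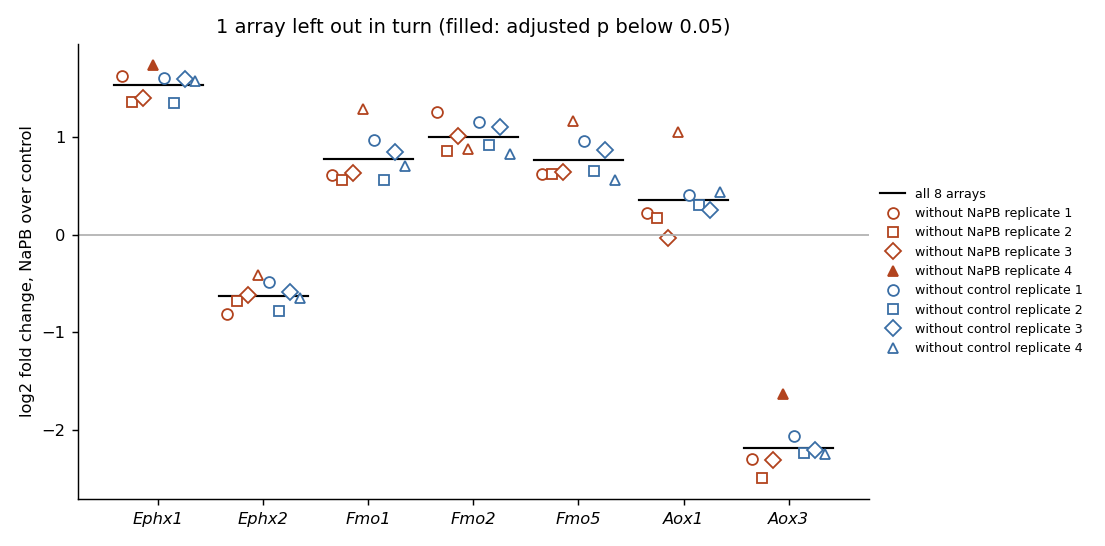
Log2 fold change of each gene with all 8 arrays (line) and with 1 array left out in turn (symbols, colour by diet, filled where the limma adjusted p was below 0.05). Of these 8 fits only the one without NaPB replicate 4 called members, Ephx1 (1.75) and Aox3 (−1.64), and the Aox1 values cross 0. The Fmo2 values rest on control arrays at the floor.

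Genes of the same families and of their cofactors were read from fixed lists. Of 9 other family genes measured (Ephx3, Ephx4, Lta4h, Fmo4, Fmo6, Fmo9, Aox2, Aox4 and Xdh), none was called in either direction by limma. An unadjusted p below 0.05 was held by 1 of them, where 10.1% of all genes had such a p. The median log2 fold change was −0.10. By the floor used for Fmo2, Aox4 was at the floor on every array, and Fmo6, Fmo9 and Aox2 on at least 1. For these genes the lack of a call does not show that the level stayed the same. The 2 with the smallest p were Xdh, the xanthine dehydrogenase gene and relative of the aldehyde oxidases, at 0.73 ± 0.31 (limma adjusted p = 0.436), and Ephx3, at 0.42 ± 0.28 (0.719). Of 11 genes of molybdenum cofactor and flavin supply and of other molybdenum enzymes, none was called. Again 1 had an unadjusted p below 0.05 (10.1% of all genes), and the median was −0.15. Suox, which encodes sulfite oxidase, another molybdenum enzyme, lay at −0.93 ± 0.39 (limma adjusted p = 0.443). It read 10.1, 12.2, 8.65 and 3.65 on NaPB replicates 1 to 4, below the 20.9, 12.4, 15.8 and 12.5 of control replicates 1 to 4. Flad1, the FAD synthetase gene, lay at 0.46 ± 0.24 (0.607), with every NaPB array above every control array. Of all genes, 2.72% lay above every control array in this way, and 4.31% below every control array, as Suox did.

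Of 8 receptor and regulator genes, none was called by limma, and 1 had an unadjusted p below 0.05, where 10.1% of all genes did. The median log2 fold change was 0.25. Ppara, whose product is known to raise Ephx2 in mouse liver when activated, had the smallest p. It read 14.0, 13.6, 9.84 and 10.05 on NaPB replicates 1 to 4, against 29.8, 16.4, 29.5 and 17.9 on control replicates 1 to 4. Every NaPB array lay below every control array, as for 4.31% of all genes. The log2 value differed by −0.94 ± 0.30 (limma adjusted p = 0.249). Nr1i3, encoding CAR, lay at −0.21 ± 0.33. The second smallest p after Ppara was that of Ahr, the aryl hydrocarbon receptor gene, at 0.92 ± 0.54 (limma adjusted p = 0.665), with 1.07 on NaPB replicate 4 against 4.28 to 6.63 on the other NaPB arrays.

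**Figure D5:**
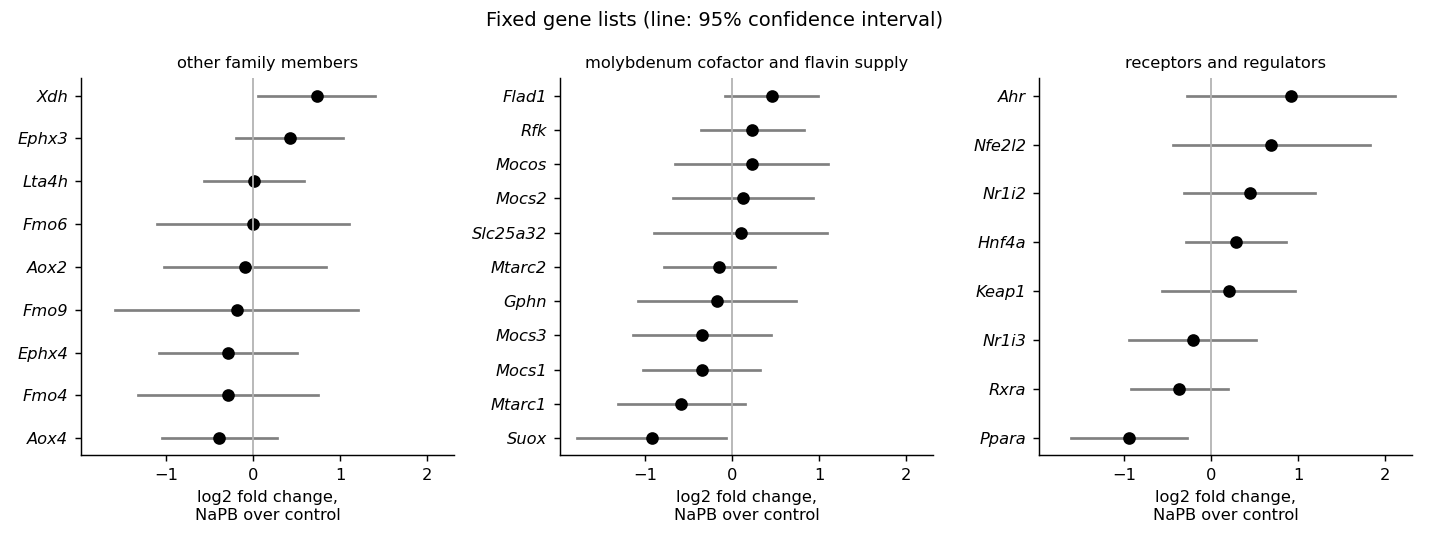
Log2 fold change of NaPB over control, with 95% confidence intervals of the limma fit over all genes, for 9 other family genes, 11 cofactor genes and 8 receptor and regulator genes. None was called; Suox (−0.93) and Ppara (−0.94) lie lowest.

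For the 2 members with the smallest p, the genes most like them over the 8 arrays were looked up by Pearson correlation of log2 values among 9748 genes in the brighter part of the table. Ephx1 was most like Rarres1 (r = 0.979; log2 fold change 1.81 ± 0.35), Golga3 (r = 0.979; 0.59 ± 0.26) and Zfp119b (r = 0.977; 0.88 ± 0.28). Aox3 was most like the sulfotransferase gene Sult2a8 (r = 0.996; −2.36 ± 0.55), Dexi (r = 0.99; −0.83 ± 0.27) and the carboxylesterase gene Ces3b (r = 0.989; −2.13 ± 0.44). Of these 6 genes limma called only Rarres1, a retinoic acid responsive gene (adjusted p = 0.0401). The 8 arrays hold both diets and the array that stood apart, which all correlations share.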

How the data were processed

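Spot intensities on a linear scale were deposited by the authors, 1 per feature and array; per the labels the RNA was Cy3-labelled, and per the submitters' processing notes scans were quantified with Agilent Feature Extraction 10.7. The 75th percentile of each array lay between 0.952 and 0.974, so values had been divided by a number near it; how background was corrected, spots flagged or a floor set is not given in the sources used here. Of 62976 features, 31465 had 1 gene symbol and 31511 none; 3282 symbols were updated through a GRCm38.p6 gene table, used for names and neighbours.

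Values were log2 transformed, with no pseudocount, scaling or filter. A gene was its brightest feature. limma 3.58.1 (R 4.3.3) was fitted with diet as its only term, two-sided, with Benjamini-Hochberg adjustment over 20738 genes, or over all features where features are compared; it was tested on simulated data. Pairs of members were tested by exact permutation over 70 relabellings, with adjustment over 5 pairs. Members, lists and tests were chosen with earlier results of these data known. Genes named are the members, Cyp2b10, of each list the called genes and the 2 with the smallest p (Nr1i3 was added), cell type markers and the 3 genes most correlated with each of 2 members. The number of arrays limits the precision. Alternatives are in the closing section. Tables and figures used Python 3.11.15, pandas 2.3.3, numpy 2.4.6 and matplotlib 3.10.9.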

Additional observations from a re-analysis of the deposited data

Results flagged for a closer look

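Among 36 sets of 4 arrays of 1 diet (the members' features, the list genes named and Cyp2b10), 6 held an array set apart. Its gap to its nearest neighbour, on the log2 scale, exceeded Dixon's 95% critical share of their range. For a single set chance alone gives about 1 in 20. The sets read the same 8 arrays and include several features of a gene, so they are not independent and the flags are not separate events. NaPB replicate 4 was the array set apart in 5 sets. Fmo1 stood at 1.21 there on its brighter feature, where NaPB replicates 1 to 3 gave 4.75 to 5.54, and at 1.08 on its other feature, against 3.90 to 4.88. Fmo5 stood at 55.7 on its brightest feature, against 167 to 176, and at 0.333 on its dimmest, against 1.98 to 2.41. Cyp2b10 stood at 77.7, against 430 to 521. The remaining flag was Ephx1 on control replicate 2, at 31.5, below the other control arrays, of which the highest stood at 53.6.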

How the results depend on the processing

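Ephx1, Ephx2, Fmo1, Fmo2, Fmo5 and Aox3 kept their direction under each alternative that held them (18 each, 17 for Fmo2). Some of these could not change a direction, because they leave the log2 fold change of a gene as it is. They are the filter on dim genes, which removed Fmo2, the fit of all features, the variance trend and the replicate number as a block. Averaging features also leaves a gene with 1 feature unchanged. With a pseudocount of 1 the Fmo2 difference shrank to 0.08 log2 units. The log2 fold change of Ephx1 ran from 1.00 (mean of its features) to 1.82 and that of Aox3 from −2.50 to −1.51. Quantile normalization, leaving out genes below the first quartile of intensity, a robust variance trend and array weights each called 1 member higher (Ephx1). The variance trend and the weights also called 1 lower (Aox3), and leaving out control replicate 1 with NaPB replicate 4 called 2 higher, 1 lower and 1 list gene (Ahr). Over all genes these gave 328 (1.58%, quantile), 221 (1.42%, filter), 264 (1.27%, trend), 812 (3.92%, weights) and 570 calls (2.75%, both arrays out), against 209. Testing all 62976 features gave 643. With 1 array left out, 0 to 1 member was called higher, 0 to 1 lower and 88 to 365 genes in all. Aox1 ran from −0.036 to 1.05, Fmo1 minus Fmo2 from −0.66 to 0.41, Fmo1 minus Fmo5 from −0.091 to 0.15 and Fmo2 minus Fmo5 from −0.29 to 0.64. These 3 pairs also changed sign with a pseudocount of 1 (0.53, −0.15 and −0.68), and the pairs Fmo1 minus Fmo2 and Fmo2 minus Fmo5 with both outer arrays left out (0.46 and −0.34). The cause was not tested. With the replicate number as a block, 135 genes and no member were called. Arrays of equal number did not deviate together (r from −0.29 to 0.23, 2 of 8 arrays closest to their own number), so the numbers were not taken as pairs.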
